A study of Mus musculus with 45 samples.

Results

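Cluster C2 of the Ter119+ erythroblast nuclei held 7070 nuclei from mice with a deleted Stag2 gene (KO), of 34073 nuclei in all. The members were the nuclei that the authors' deposited table placed in C2 with the KO genotype. They came from KO replicates 1, 2 and 3, with 2134, 2490 and 2446 nuclei. The authors' table gave 7035 of them (99.5%) the class Late and the other 35 the class Int, read here as intermediate. KO nuclei made up 97.4% of the cluster, and the 190 WT nuclei of C2 were 64, 58 and 68 in WT replicates 1, 2 and 3.

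Ter119+ erythroblasts were sorted from Stag2 WT and Stag2 KO mice that had finished pIpC, the inducer of the deletion, 6 to 8 weeks earlier. Ter119 marks the surface of maturing erythroid cells. Nuclei were profiled as 10x Genomics multiome libraries, and the deposited table held the chromatin accessibility (ATAC) readout of 3 KO and 3 WT libraries. Both genotypes received pIpC as far as the series' design text states, the labels did not name the driver of the deletion or the animals' age, and they did not say whether each library came from a separate animal.

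Erythroblasts divide a few times as they fill with hemoglobin, condense their chromatin, clear their organelles and finally expel the nucleus. Cohesin is a protein ring that encloses DNA and extrudes chromatin loops. Stag2 encodes 1 of its accessory subunits, and Stag1 encodes the paralogous subunit that can take its place. The gene score, a sum of ATAC fragments over and around a gene, measures accessibility and not RNA, and neighbouring genes share fragments in it.

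C2 was compared with the KO nuclei of 3 Int clusters of the same libraries, C5 (1698 nuclei), C8 (2020 nuclei) and C10 (2972 nuclei). Scores were averaged over the nuclei of each library and cluster, rescaled to a sum of 1000000 over genes, and compared within each library as log2(score + 1). The clusters had been made from these same fragments, so differences between them are descriptions without a test. A gene was counted as higher or lower in C2 when its difference had 1 sign in the 3 libraries and a mean of at least 1 in size, which is a 2-fold difference.

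The promoters of 4 genes counted as higher or lower in C2 are shown here as RefSeq gives them (build GRCm38.p6). The 4 genes were picked by hand. Each promoter is the 250 bases before the start of transcription, written along the gene's strand. Ube2h, an E2 ubiquitin-conjugating enzyme abundant in late erythroblasts, lay on chromosome 6 (minus strand, promoter chr6:30304540-30304789) and was counted as higher in C2. Tmem131l, a transmembrane protein gene on chromosome 3 (minus strand, promoter chr3:84040162-84040411), was also counted as higher. Tfdp1, the dimer partner of the E2F factors that drive entry into S phase, lay on chromosome 8 (plus strand, promoter chr8:13338501-13338750) and was counted as lower. Stag1 lay on chromosome 9 (plus strand, promoter chr9:100643198-100643447) and was counted as lower. The table had no entry for Xpo7. The start of transcription in the deposited gene table was the same base for the first 3 genes and lay 175 bases downstream for Stag1.
Ube2h: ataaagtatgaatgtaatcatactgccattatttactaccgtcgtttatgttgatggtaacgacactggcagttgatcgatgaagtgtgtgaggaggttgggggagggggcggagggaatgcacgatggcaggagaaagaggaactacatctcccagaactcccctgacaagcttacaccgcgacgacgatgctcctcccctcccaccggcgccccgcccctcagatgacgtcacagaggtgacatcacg
Tmem131l: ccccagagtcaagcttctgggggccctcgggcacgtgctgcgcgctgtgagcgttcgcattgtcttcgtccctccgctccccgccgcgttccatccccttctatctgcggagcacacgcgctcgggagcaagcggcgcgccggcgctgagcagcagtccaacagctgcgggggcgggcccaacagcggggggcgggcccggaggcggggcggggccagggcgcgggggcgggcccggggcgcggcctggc
Tfdp1: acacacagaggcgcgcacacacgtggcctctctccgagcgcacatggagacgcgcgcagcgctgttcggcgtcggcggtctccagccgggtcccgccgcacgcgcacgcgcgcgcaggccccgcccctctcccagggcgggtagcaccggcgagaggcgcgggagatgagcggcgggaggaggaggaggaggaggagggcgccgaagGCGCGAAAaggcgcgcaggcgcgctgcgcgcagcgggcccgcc
Stag1: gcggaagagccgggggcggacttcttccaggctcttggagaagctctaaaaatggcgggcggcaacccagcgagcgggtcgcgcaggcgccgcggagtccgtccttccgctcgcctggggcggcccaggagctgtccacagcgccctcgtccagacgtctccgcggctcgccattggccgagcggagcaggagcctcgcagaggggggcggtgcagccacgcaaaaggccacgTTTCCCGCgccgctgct
Capitals mark matches on either strand to the E2F words TTTCCCGC, TTTGGCGC, TTTCGCGC and TTTGCCGC or to the GATA words AGATAA and TGATAA. Tfdp1 and Stag1 each held 1 E2F word and no GATA word, and Ube2h and Tmem131l held none of either. Of 17880 promoters of this length matched by symbol to the 24333 genes of the deposited table, 2.39% held an E2F word and 14.4% a GATA word. No such share was computed for the genes counted as higher or lower, so the promoters shown say nothing about those sets. The G+C share was 53.6% for Ube2h, 76.8% for Tmem131l, 76.8% for Tfdp1 and 71.2% for Stag1.

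C2 was the largest of the 4 compared clusters in each KO library. It held 43.9%, 53.9% and 49.7% of the nuclei of KO replicates 1, 2 and 3 (49.2% ± 5.02, SD, n = 3), against 0.932%, 0.997% and 0.973% in the WT libraries. Counting error was small beside this spread, with a 95% Wilson interval of 42.5 to 45.3% in KO replicate 1. C2 made up 97.3% ± 0.253 of the KO nuclei of class Late and 1.86% ± 0.435 of the WT ones (n = 3 each). The WT nuclei of class Late lay mostly in cluster C3, which held 10059 WT nuclei.

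The nuclei of C2 were shallower than those of C8 and C10. The median number of fragments per C2 nucleus was 6091.5, 6144 and 6594 in KO replicates 1, 2 and 3 (6276.5 ± 276). It was 4906.2 ± 147 in C5, 21219.7 ± 310 in C8 and 15410.8 ± 600 in C10, so depth differed between the clusters together with every score described below, and its part in them was not tested. Fragment ends fell in peaks for a median of 60.9% ± 0.81 of ends per C2 nucleus, above C5 (56% ± 1.15), C8 (52.2% ± 0.51) and C10 (57.4% ± 0.675) in each library. The share in promoters was likewise highest in C2, at 49% ± 0.715 against 44.9%, 39.6% and 46.2%. The share in blacklisted regions, which collect artefactual reads, was also highest in C2 in each library, at 5.62% ± 0.046 against 4.76%, 4.96% and 4.69%. Enrichment at transcription start sites was 32.8 ± 0.352 in C2, above C5 (31.7) and C8 (27.3) and below C10 (33.3) in each library. A doublet score above 0 was listed for 19.1% of C2 nuclei, 10% of C5, 40.1% of C8 and 41.8% of C10. Barcodes of 309 C2 nuclei (4.37%) also occurred in another library, against 4.34% of all nuclei.

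**Figure D1:**
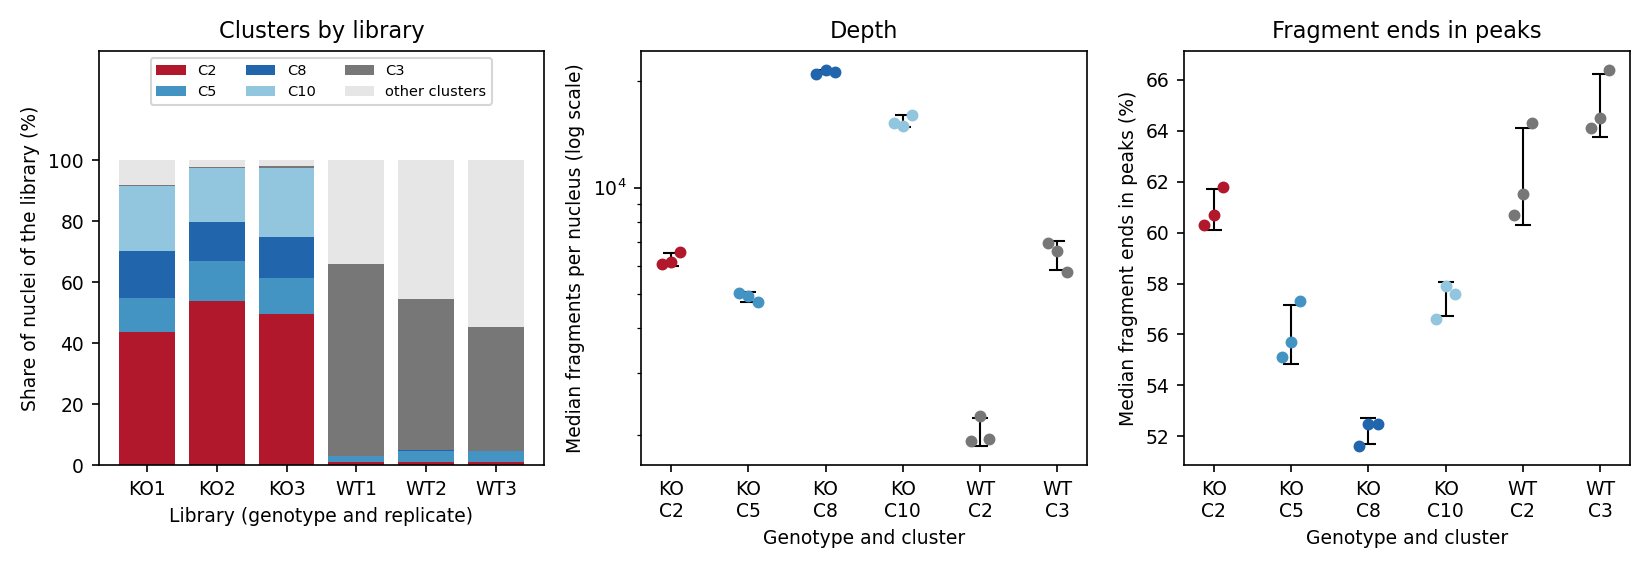
Left, share of the nuclei of each library (%) in C2, C5, C8, C10, C3 and the other clusters. Middle and right, median fragments per nucleus (log scale) and median share of fragment ends in peaks (%), with 1 point per library and bars for mean ± SD; KO C2 held 43.9 to 53.9% of the KO libraries and lay between C5 and the 2 deep clusters C8 and C10 in depth.

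The 4 markers given for the cluster did not all point the same way. Slc4a1, the band 3 anion exchanger of the red cell membrane, scored 518, 529 and 509 (per 1000000, as all scores below) in C2 and 382, 422 and 441 in C5. It was higher in C2 than in C5, C8 and C10 in each library, by 0.32 ± 0.11, 0.65 ± 0.05 and 0.53 ± 0.01 on the log2 scale (SD, n = 3). The Slc4a1 difference was 0.21 against C5 in nuclei with 5000 to 12000 fragments and 1.03 against C8 when the log2 values were centred on the median gene (median centring). Alas2, the erythroid enzyme that starts heme synthesis, scored 109, 106 and 104 in C2 and was higher than in C5, C8 and C10 by 0.15 ± 0.11, 0.36 ± 0.08 and 0.27 ± 0.03. These Alas2 values were 0.07, 0.27 and 0.22 after quantile normalization and 0.23, 0.75 and 0.42 after median centring. Klf1, an erythroid transcription factor, scored 177, 189 and 200 in C2 and 238, 237 and 283 in C5. Its differences were -0.42 ± 0.09, -0.23 ± 0.08 and -0.25 ± 0.04 against C5, C8 and C10, lower in each library. The last 2 were -0.47 and -0.38 after quantile normalization and 0.16 and -0.10 after median centring. Slc25a37, the mitochondrial iron importer mitoferrin, scored 31.7, 24.1 and 27.1 in C2, with mean differences of -0.33, -0.44 and -0.31. Against C8 its difference was -0.10 after quantile normalization and -0.06 after median centring, and against C10 it was -0.16 under both and -0.07 in nuclei with 5000 to 12000 fragments. Of the 4 markers, 2 were lower against each cluster in each library with the scaling to a common sum, 1 after quantile normalization and 0 after median centring. Neither Klf1 nor Slc25a37 was higher in C2 than in all 3 Int clusters under any of these scalings, and the nuclei are called C2 here.

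Few genes were higher in C2 by the 2-fold rule and many more were lower. Against C5, 96 of 18174 genes (0.528%) were counted as higher and 895 (4.92%) as lower. Against C8 these were 36 of 18483 (0.195%) and 1554 (8.41%), and against C10 they were 72 of 17963 (0.401%) and 993 (5.53%). The split depended on the scaling and on the filter for low scores. Higher genes made up 9.69%, 2.26% and 6.76% of the counted genes against C5, C8 and C10, but 46.8%, 28.9% and 29.8% after quantile normalization and 19.6%, 63.1% and 19.4% after median centring. The median difference of all genes was -0.09, -0.33 and -0.08 with the scaling to a common sum. Quantile normalization moved the differences of single genes up by a median of 0.07, 0.33 and 0.14, and median centring by 0.08, 0.38 and 0.15. The differences below are those with the scaling to a common sum unless another is named. Median centring moves all genes of a comparison by the same amount, largest against C8. Quantile normalization moves genes by unequal amounts, and some of them down. Against C8 it took Tmem131l from 1.64 to 1.41 and Sdr39u1 from 0.81 to 1.27.

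The difference followed the level of the score. Among the genes with the lowest scores, the first of 20 bins of equal size, the median difference was -0.56, -0.72 and -0.47 against C5, C8 and C10. In the bin with the highest scores it was 0.08, 0.32 and 0.16. Genes counted as lower had a median length of 41.8 kb, 28.3 kb and 100 kb, against 17.9 kb, 17.7 kb and 18.1 kb for all genes compared. They also had low scores, with a median of 8.74, 13 and 8.6 against 27.6, 29.9 and 29.2 for all genes compared. The filter kept genes with a mean of at least 5. With a filter at a mean of 20, the lower genes numbered 184, 499 and 207. Length and score were not separated here.

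**Figure D2:**
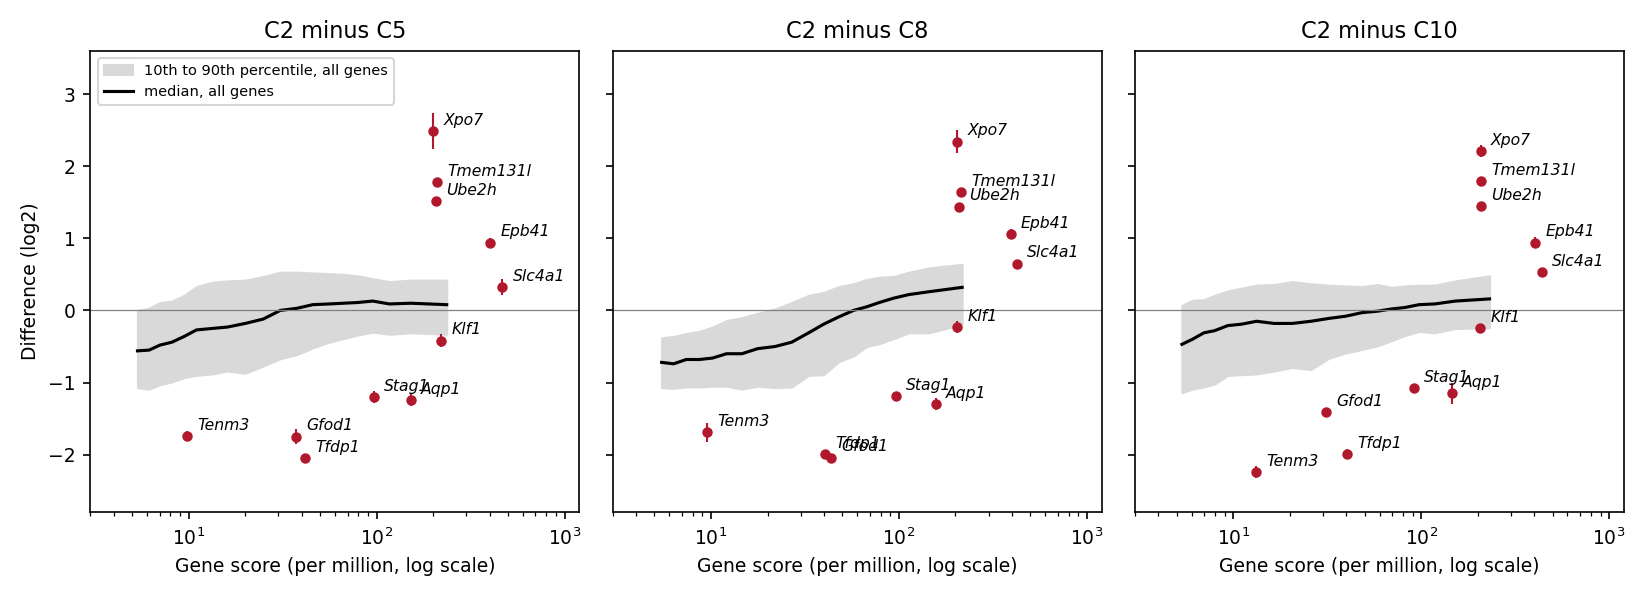
Difference in log2 gene score of KO C2 minus KO C5, C8 and C10 against the gene score (per 1000000, log scale, mean of both clusters). The line is the median and the band the 10th to 90th percentile of all genes in 20 bins of the score; red points are named genes with bars for SD over 3 libraries, and Xpo7, Tmem131l and Ube2h lie above the band while Tfdp1, Stag1 and Aqp1 lie below it in each panel.

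Against each of the 3 Int clusters, 20 of 17521 genes (0.114%) were counted as higher and 347 (1.98%) as lower. These counts were 52 and 72 after quantile normalization and 74 and 94 after median centring. The 20 higher genes lay at 15 loci when genes within 100 kb were joined, so some of them may rest on the same fragments. They were Xpo7 with its neighbour Npm2, Fam229a with Tssk3, Khnyn with Cbln3, Zfp874a with Zfp874b, Tmem200b with Gm12992, and Tmcc2, Tmem131l, Tbcel, Ube2h, Bco2, Mkrn1, Specc1, Tcp11l2, Klhl21 and 4933431G14Rik. The 347 lower genes lay at 304 loci and had a median length of 110 kb, against 18.2 kb for all genes compared and 21.3 kb for the 20 higher ones.

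Xpo7 had the largest difference among the named higher genes. It encodes a nuclear exportin that takes part in the nuclear condensation of maturing erythroblasts, and lies at chromosome 14, 70654246 to 70766628 (mm10, minus strand). Its score was 340, 329 and 353 in C2 of KO replicates 1, 2 and 3. It was 50.7, 69.5 and 60.5 in C5, 59.6, 71.9 and 69 in C8, and 70.4, 75.4 and 72.8 in C10. The 3 C2 values lay far above all 9 Int values, and the difference was 2.49 ± 0.25, 2.34 ± 0.16 and 2.21 ± 0.08, or 5.66-fold, 5.1-fold and 4.67-fold. Of the 8 neighbours within 100 kb, 3, 1 and 2 were counted as higher in the same comparisons.

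Tmem131l (chromosome 3, 83898287 to 84040161) scored 331, 331 and 313 in C2 and 93.6, 94.8 and 93.7 in C5. The difference was 1.78 ± 0.04, 1.64 ± 0.06 and 1.79 ± 0.03 against C5, C8 and C10, and neither of its 2 neighbours was counted as higher. Its C2 and Int values did not overlap.

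Tmcc2, which encodes a membrane protein of the endoplasmic reticulum, lies at chromosome 1, 132356315 to 132391386. Its score was 702, 710 and 722 in C2 and 210, 216 and 232 in C5, again without overlap, and the difference was 1.69 ± 0.05, 1.77 ± 0.02 and 1.60 ± 0.03. Tbcel, a gene related to the tubulin-folding cofactor E (chromosome 9, 42412317 to 42472226), scored 157, 164 and 165 in C2 and 48.3 to 52.2 in C5, with differences of 1.65 ± 0.09, 1.63 ± 0.04 and 1.38 ± 0.07.

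Ube2h, whose promoter is shown above, covers chromosome 6, 30211289 to 30304539. Its score was 311, 306 and 301 in C2, 108, 110 and 101 in C5, 112, 116 and 109 in C8, and 114, 112 and 108 in C10. The C2 values were about the same in the 3 libraries and stood apart from the Int values, with differences of 1.52 ± 0.05, 1.44 ± 0.04 and 1.45 ± 0.02. Of its 8 neighbours, 5 were counted as higher against C5, 0 against C8 and 1 against C10.

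The short gene Fam229a (chromosome 4, 129491190 to 129491956) scored 54.2, 46.9 and 43.3 in C2 and 11.4, 10.6 and 4.49 in C5, with differences of 2.40 ± 0.53, 1.61 ± 0.02 and 1.92 ± 0.20. Bco2, a mitochondrial carotenoid-cleaving enzyme (chromosome 9, 50533087 to 50555138), had lower scores, 26.6, 28.7 and 21.9 in C2 and 5.85, 7.7 and 4.73 in C5. Its differences were 1.93 ± 0.13, 1.09 ± 0.17 and 1.58 ± 0.23. Sdr39u1, a short-chain dehydrogenase gene (chromosome 14, 55897285 to 55900232), was counted as higher against C5 (1.45 ± 0.30) and C10 (1.66 ± 0.14) and missed the 2-fold rule against C8 (0.81 ± 0.34, and 1.27 after quantile normalization).

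Among the named lower genes, Tfdp1 was the one picked in all 3 comparisons. It covers chromosome 8, 13338751 to 13378448. Its score was 16.1, 15.4 and 15.3 in C2, 70.8, 67.2 and 65.1 in C5, 70.4, 61.8 and 62.9 in C8, and 64.6, 63.5 and 67.4 in C10. The Int values were more than 3 times the C2 values in each library, with differences of -2.05 ± 0.02, -1.99 ± 0.06 and -1.99 ± 0.07. Its neighbours were not counted as lower, except 1 of 6 against C8.

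Gfod1 (chromosome 13, 43195519 to 43304172) scored 16.7, 16 and 16.7 in C2 and 59.4, 51.8 and 62.1 in C5, with differences of -1.75 ± 0.10, -2.04 ± 0.02 and -1.41 ± 0.04. Samd1, which encodes a protein that binds unmethylated CpG islands (chromosome 8, 83997672 to 84000386), scored 63.7, 59.3 and 68.1 in C2 and 219, 230 and 224 in C5. Its differences were -1.80 ± 0.12, -1.68 ± 0.08 and -1.44 ± 0.09. Hist1h4k, 1 of the replication-dependent histone H4 genes (chromosome 13, 21750145 to 21750553), scored 61.3, 51.7 and 57 in C2 and 221, 237 and 230 in C5, 4.04-fold higher in C5. Histone genes lie close together and share near-identical sequence, so the score of this single gene is uncertain.

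The other named lower genes were long genes or genes with low scores. Spock1, Tenm3 and Csmd1, known mainly from neural and matrix biology, span 487, 449 and 1642.8 kb. Tenm3 scored 4.23, 4.18 and 3.56 in C2 against 23.1, 22.4 and 21.9 in C10, a difference of -2.24 ± 0.08. Spock1 scored 4.69 on average in C2, with differences of -1.93 ± 0.46, -1.86 ± 0.31 and -2.16 ± 0.35, and Csmd1 scored 14.8, with differences of -1.61 ± 0.23, -1.50 ± 0.26 and -2.07 ± 0.20. Quantile normalization brought the differences against C8 to -1.22 for Spock1 and -1.03 for Tenm3. Mcpt1, a mast cell protease gene, and Zdhhc15, a palmitoyltransferase gene, were lowest relative to C8, at -2.11 ± 0.28 and -2.08 ± 0.17. After quantile normalization these were -1.48 and -1.54. Mcpt1 scored 4.28 on average in C2 and 22.2 in C8. Against C5 and C10 it was at -1.01 ± 0.69 and -0.96 ± 0.13, and at -0.51 and -0.56 after quantile normalization.

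**Figure D3:**
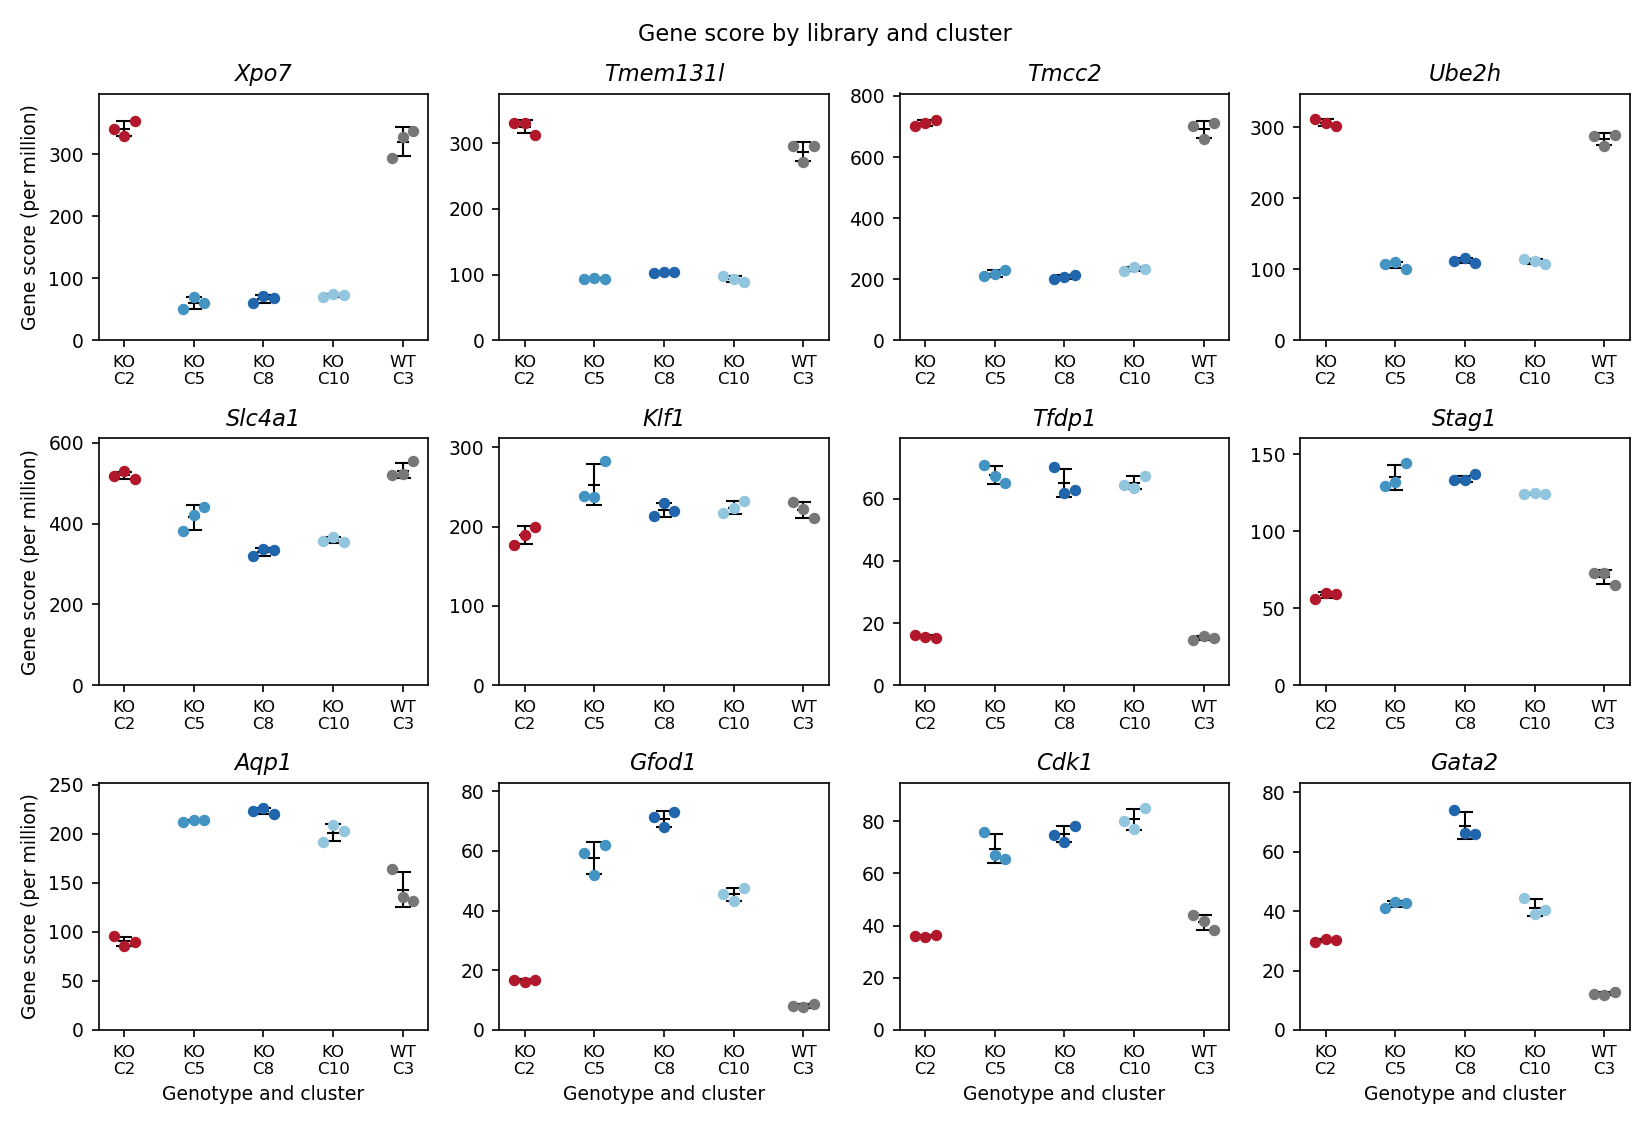
Gene score (per 1000000, linear axis from 0) of 12 genes in KO clusters C2, C5, C8 and C10 and in WT cluster C3, with 1 point per library and bars for mean ± SD of 3 libraries. Xpo7, Tmem131l, Tmcc2, Ube2h and Slc4a1 were higher in KO C2 than in each KO Int cluster and the other 7 genes lower, and the WT C3 score of Gata2 (11.8 to 12.7) lay below its KO C2 score (29.6 to 30.6).

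The gene lists were described by how many members were higher, or lower, in C2 than in each of C5, C8 and C10 in each of the 3 libraries, whatever the size. Of all 17521 genes compared, 3291 (18.8%) were higher in that sense and 5930 (33.8%) were lower, and the median of the mean difference was -0.13. These shares themselves moved with the scaling, to 24.4% higher and 20.8% lower after quantile normalization and 31.9% and 21.5% after median centring, and each list is to be read against them. Of 20 genes of organelle clearance and enucleation, 13 were higher and 2 lower (12 and 2 after quantile normalization, 14 and 1 after median centring), with a median of 0.49, 0.51 and 0.70 in turn. Xpo7 and Ube2h passed the 2-fold rule against each cluster. Ube2o, the hybrid ubiquitin enzyme that clears ribosomal proteins in reticulocytes, had a mean difference of 1.05, and Bpgm 1.03. Both missed the 2-fold rule against C5, at 0.97 each, and Bpgm also missed it against C10, at 0.95. Bpgm makes the hemoglobin effector 2,3-bisphosphoglycerate and is a metabolic enzyme, so this count holds a gene that the list's name does not cover. Bnip3l, the receptor for removal of mitochondria by autophagy, had a mean difference of 0.79 and the autophagy kinase Ulk1 0.78. The 2 lower members were small GTPases, Rac2 at -0.80 and Rac1 at -0.34, the latter at -0.14 after median centring, with 0.03 against C8.

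Of the 6 globin genes compared, 3 were higher in C2 and 0 lower (5 and 0 after quantile normalization, 4 and 0 after median centring), with a median of 0.50, 0.61 and 0.70 in turn. The 3 higher ones were the adult alpha genes Hba-a1 and Hba-a2 and the adult beta gene Hbb-bs, which differed by 0.35, 0.67 and 0.48 against C5, C8 and C10 (0.33, 0.38 and 0.33 after quantile normalization, 0.43, 1.05 and 0.63 after median centring). Hba-a1 scored 227, 244 and 238 in C2 and 138 to 170 in C5, a difference of 0.63 ± 0.14, with 0.86 ± 0.07 against C8 and 0.74 ± 0.06 against C10. Hba-a2, the adjacent and near-identical alpha globin gene, scored 252, 293 and 309 in C2, with differences of 0.74 ± 0.16, 0.95 ± 0.00 and 0.72 ± 0.03, and the authors' counting could have split reads between both copies. Hba-x, the embryonic alpha-type gene, differed by 0.78, 0.20 and 0.51 and was not higher in every library and comparison. Its difference against C8 was 0.80 after quantile normalization and 0.59 after median centring. Hbb-y and Hbb-bh1, the embryonic beta-type genes, had mean differences of 0.15 and 0.09 whose sign depended on the cluster or the scaling. These means were -0.02 and 0.62 after quantile normalization and 0.35 and 0.30 after median centring.

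Heme and iron genes were found on both sides. Of 11 heme genes, 4 were higher and 3 lower, with a median of 0.05. After quantile normalization 3 were higher and 4 lower with a median of -0.04, and after median centring 4 and 1 with a median of 0.25. Fech, which inserts iron into the porphyrin ring, scored 229, 231 and 227 in C2 and 180 to 185 in C5, and its differences were 0.33 ± 0.03, 0.44 ± 0.08 and 0.32 ± 0.00. Uros, an enzyme in the middle of the pathway, was also higher, by 0.40, 0.35 and 0.31. Against C8, quantile normalization gave 0.20 for Fech and 0.14 for Uros, and median centring 0.82 and 0.73. Fech was at 0.18 against C10 after quantile normalization. Alad, the enzyme of the second step, was lower at -0.48 ± 0.06, -0.40 ± 0.02 and -0.38 ± 0.05, and the porphyrin transporter gene Tmem14c was lower at -0.45, -0.56 and -0.22. Alad was at -0.55, -0.64 and -0.50 after quantile normalization and -0.40, -0.02 and -0.23 after median centring. Tmem14c was at -0.53, -0.74 and -0.29 and at -0.37, -0.18 and -0.07 in turn. Of 13 iron genes, 3 were higher and 4 lower (2 and 4 after quantile normalization, 3 and 1 after median centring). With the scaling to a common sum these were 23.1% and 30.8% of the list, near the 18.8% and 33.8% of all genes compared. Ncoa4, the receptor that delivers ferritin for breakdown, had a mean difference of 0.44 and Ftl1, the ferritin light chain, 0.31. These means were 0.33 and 0.16 after quantile normalization and 0.64 and 0.51 after median centring. Steap3, the endosomal ferric reductase, had a mean difference of -0.60, or -0.39 after median centring.

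Of 21 red cell membrane genes, 7 were higher and 8 lower (5 and 9 after quantile normalization, 11 and 5 after median centring). Epb41, the gene for protein 4.1R (chromosome 4, 131923413 to 132075313), scored 545, 545 and 503 in C2 and 268, 289 and 271 in C5. Its 3 C2 values lay above all Int values, with differences of 0.94 ± 0.07, 1.06 ± 0.07 and 0.94 ± 0.08, and 2 of its 6 neighbours were counted as higher, among them Tmem200b at its 3' side. Aqp1, the water channel of red cells (chromosome 6, 55336299 to 55348555), was the member counted as lower against each cluster, though at -0.92 against C8 after median centring it missed the 2-fold rule there. It scored 95.5, 85.7 and 89.3 in C2, 212 to 214 in C5, 220 to 226 in C8 and 191 to 209 in C10, with differences of -1.24 ± 0.08, -1.30 ± 0.08 and -1.15 ± 0.14. Sptb, the beta spectrin gene, was lower by means of -0.68, -0.70 and -0.53, the second of which was -0.31 after median centring.

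Of 18 erythroid regulators, 4 were higher and 8 lower, with a median of -0.19. The balance turned with the scaling, to 2 higher and 12 lower with a median of -0.26 after quantile normalization and 6 higher and 2 lower with a median of 0.02 after median centring. Foxo3, a regulator of late maturation and mitochondrial clearance, scored 313, 311 and 315 in C2 and 200 to 224 in C5, with differences of 0.54 ± 0.08, 0.41 ± 0.01 and 0.56 ± 0.03. E2f2, an E2F factor with a role in the terminal divisions, was higher by 0.40, 0.50 and 0.43. Against C8, Foxo3 was at 0.12 and E2f2 at 0.17 after quantile normalization and at 0.79 and 0.88 after median centring, and E2f2 was at 0.26 against C10 after quantile normalization. Ikzf1, the Ikaros factor, was lower at -0.98 ± 0.09, -1.04 ± 0.07 and -0.97 ± 0.12, and Bcl11a, a repressor of embryonic globin genes, at -0.63, -1.22 and -0.49. After median centring Ikzf1 was at -0.66 and Bcl11a at -0.84 against C8. Gata1 scored 62, 63.3 and 68.4 in C2 and 71.1, 83.8 and 88.9 in C5, with differences of -0.32 ± 0.11, -0.34 ± 0.07 and -0.26 ± 0.02. After median centring the second of these was 0.04 and the third -0.11.

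The balance of the cell division genes depended on the scaling. Of 30 cell cycle and replication genes, 17 were lower and 1 was higher, with a median of -0.19 that was -0.22 after quantile normalization and 0.01 after median centring, where 5 were lower and 5 higher. Cdk1, the kinase that drives mitosis, scored 36.1, 35.8 and 36.4 in C2 and 75.7, 67.2 and 65.5 in C5, with differences of -0.92 ± 0.11, -1.04 ± 0.05 and -1.14 ± 0.06, the second of which was -0.65 after median centring. Tyms, which makes thymidylate for DNA synthesis, had a low score in C2 (6.52 on average) and differences of -0.84, -1.67 and -0.89, the first 2 of which were -0.46 and -1.07 after quantile normalization. Aurka, a mitotic kinase, was the higher member, by 0.24, 0.33 and 0.13 (0.16, 0.26 and 0.09 after quantile normalization, 0.32, 0.72 and 0.28 after median centring). Among 10 genes of cell cycle exit, 4 were higher and 2 lower. Ccng2, a cyclin of resting cells, scored 74.6, 73.6 and 96 in C2 and 29.4, 47.1 and 43.9 in C5 and had a mean difference of 0.96, and the antiproliferative gene Btg1 had 0.72. Rb1, the retinoblastoma gene, had a mean difference of -0.66 and Cdkn1a, which encodes p21, -0.38, the latter at -0.18 after median centring, with -0.03 against C8.

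Stem and progenitor genes were lower in 14 of 18 members and higher in 1, with a median of -0.68 (-0.31 after quantile normalization, where 8 were lower, and -0.48 after median centring). Meis1, a homeobox gene of stem cells, scored 5.31, 5.4 and 5.17 in C2 and 8.71 to 16.5 in C5 and was counted as lower against each cluster. It was counted against none after quantile normalization (-0.61, -0.34 and -0.68) or median centring (-0.95, -0.63 and -0.86), and such low scores rest on few fragments. Myc scored 20.5, 16.3 and 19.8 in C2 and 65.1, 58.6 and 58.2 in C8, a difference of -1.64 ± 0.14, and had differences of -0.77 and -0.57 against C5 and C10. Gata2, the GATA factor of progenitors, scored 29.6, 30.6 and 30.2 in C2, 41.1, 43 and 42.8 in C5, 73.9, 66.4 and 66.1 in C8 and 44.3, 39 and 40.4 in C10. Its differences were -0.48 ± 0.02, -1.16 ± 0.11 and -0.44 ± 0.11, with no overlap between C2 and any Int cluster, and the last 2 were -0.78 and -0.29 after median centring. In nuclei with 5000 to 12000 fragments, the Gata2 differences against C5 and C10 were -0.14 and -0.25, and with nuclei weighted by their fragments that against C5 was -0.22. Runx1 was the higher member, at 0.54, 0.29 and 0.49, the second of which was 0.05 after quantile normalization and 0.67 after median centring.

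Among 12 cohesin and CTCF genes, 3 were higher and 5 lower (3 and 5 after quantile normalization, 7 and 3 after median centring). With the scaling to a common sum these were 25% and 41.7% of the list, near the 18.8% and 33.8% of all genes compared. After quantile normalization 41.7% were lower against 20.8% of all genes, and after median centring 58.3% were higher against 31.9%. Stag1 was the 1 member counted as lower against each cluster. Stag1 (chromosome 9, 100643623 to 100958544, 315 kb) scored 56.1, 60 and 58.9 in C2. It scored 129, 132 and 144 in C5, 133, 133 and 137 in C8, and 124, 125 and 124 in C10. Each C2 value was below 61 and each Int value at least 124, with differences of -1.20 ± 0.08, -1.19 ± 0.05 and -1.08 ± 0.04, and none of its 3, 3 and 2 neighbours was counted as lower. After median centring the Stag1 differences against C8 and C10 were -0.81 and -0.93, so it was counted as lower against C5 alone. Stag2 itself scored 62.5, 68.6 and 64.9 in C2 and 54.6 to 65.4 over the Int clusters, with differences of 0.04 ± 0.05, 0.08 ± 0.04 and 0.22 ± 0.04, which were -0.03, 0.11 and 0.25 after quantile normalization and 0.12, 0.47 and 0.37 after median centring. A gene score over the whole locus does not check the deletion. Pds5a, a cohesin regulator, was lower at -0.75, -1.06 and -0.72, the second of which was -0.68 after median centring. The cohesin release factor Wapl and the loader subunit Mau2 were higher with mean differences of 0.40 and 0.41, which were 0.32 and 0.35 after quantile normalization and 0.60 and 0.61 after median centring. Wapl against C8 was at 0.23, 0.12 and 0.61 in turn.

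**Figure D4:**
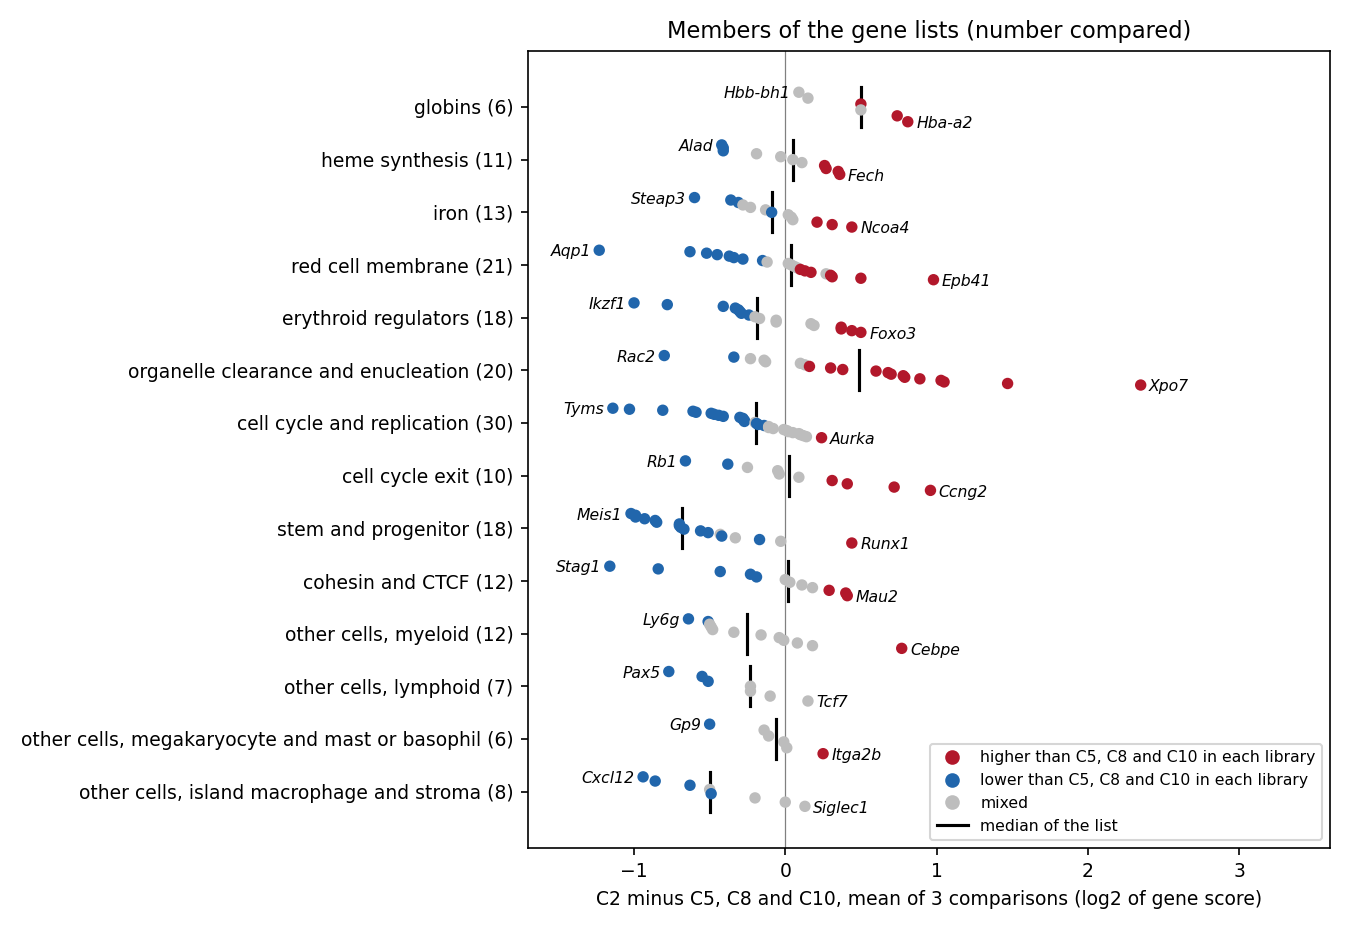
Each point is 1 gene of a list, placed by its mean log2 difference of KO C2 minus KO C5, C8 and C10, and the number of genes compared is in parentheses. Red genes were higher and blue genes lower than all 3 clusters in each of 3 libraries, and black lines mark list medians, from -0.68 for stem and progenitor genes to 0.50 for globins.

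Of the 4 lists of markers of other cells, the myeloid list had a higher summed score in C2 than in each Int cluster. The lymphoid and the macrophage and stroma lists had lower ones, and the megakaryocyte and mast cell or basophil list overlapped C5. No marker of these lists was at 0 in KO C2. The summed score of 14 macrophage and stroma markers was 96.9 to 101 in C2, 123 to 130 in C5, 143 to 155 in C8 and 114 to 118 in C10. That of 14 lymphoid markers was 183 to 193 in C2 against 200 to 268 over the 3 Int clusters, and that of 13 megakaryocyte and mast cell or basophil markers was 332 to 344 against 339 to 425. The summed score of 14 myeloid markers was 302 to 331 in C2 against 223 to 289. Cebpe, a granulocyte factor gene, accounted for 171, 181 and 204 of this in C2 and 90.3 to 123 over the Int clusters. Of the 12 myeloid markers compared, Cebpe was the 1 that was higher against each cluster in each library, and 2 were lower. After quantile normalization 4 were higher and 0 lower, and after median centring 1 and 2. The median differences of these lists depended on the scaling, from -0.49 to 0.08 for the macrophage and stroma markers and from -0.25 to 0.21 for the myeloid markers after quantile normalization. The part of other cells in the differences was not tested.

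The WT nuclei of class Late in C3 gave scores close to KO C2 at several of these genes. Xpo7 scored 294, 328 and 338 in WT C3, Ube2h 287, 273 and 289, and Tfdp1 14.4, 15.8 and 15.2. Each of these ranges lay nearer to KO C2 than to any KO Int cluster. Bco2, at 11.7, 13.5 and 12.9, Gata2, at 12.2, 11.8 and 12.7, and Gfod1, at 8.02, 7.53 and 8.55, were lower in WT C3 than in KO C2 in every library. Cdkn1a was lower in WT C3 too, at 14.7, 17.4 and 20.3 against 62.5, 48.2 and 61.3 in KO C2. Aqp1, at 164, 135 and 131, and Stag1, at 72.7, 72.6 and 65.3, were higher in WT C3 than in KO C2. The Stag1 values of WT C3 still lay nearer to KO C2 (56.1 to 60) than to the KO Int clusters (124 to 144). Of the 4 markers, Klf1 scored 231, 222 and 211 in WT C3, above its KO C2 scores (177, 189 and 200). Slc25a37 scored 39.5, 42.2 and 48.2 there, above KO C2 (31.7, 24.1 and 27.1) and the KO Int clusters (32.1 to 38.7). Alas2, at 121, 119 and 125, was above KO C2 too, and Slc4a1, at 519, 522 and 554, overlapped KO C2. C2 and C3 were separated by the clustering nearly along genotype, so these values are given side by side without a test.

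Within C2 itself, KO and WT nuclei were compared over 6 libraries with limma. The 190 WT nuclei had been placed in C2 by a clustering of these same fragments, so they were chosen for their likeness to the KO nuclei, and the comparison does not show how alike the genotypes are. Of 17360 genes, 0 (0%) passed an adjusted p of 0.05, and 2190 had an unadjusted p under 0.05. The 2190 are a larger share than the 0.05 that no difference would give, though neighbouring genes share fragments. The median log2 difference of all genes was 0.155. After median centring it was 0.029, and 2186 genes had an unadjusted limma p under 0.05. The count past the adjusted threshold depended on the WT libraries. It was 395, 873 and 1161 when WT replicate 1, 2 or 3 was left out, and 0 when any KO replicate was left out. The WT means rested on 58 to 68 shallow nuclei each, with a median of 2043.3 ± 187 fragments, against 6276.5 ± 276 for KO. Gata2 scored 29.6, 30.6 and 30.2 in KO and 11.1, 11.3 and 21.3 in WT, and the groups did not overlap. Its log2 difference, KO minus WT, was 1.06 (SE 0.33) and did not pass the threshold (limma adjusted p = 0.312, range over the alternatives 0.0322 to 0.977). Without WT replicate 3, the library that scored 21.3, it was 1.35 and passed (limma adjusted p = 0.0322), so the call turned on that library. Klf1 differed by -0.18 (SE 0.13), Stag1 by -0.27 (SE 0.31), Gata1 by 0.05 (SE 0.50) and Stag2 by -0.25 (SE 0.20), and none of these 4 passed the threshold in limma or in any alternative run.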

How the data were processed

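Single-nucleus ATAC libraries of 3 KO and 3 WT samples were used of 45 samples in the series, and the other samples were not analysed here. The authors deposited gene scores, a signal per gene and nucleus scaled to a sum of 10000 in each nucleus (found 9999.86 to 10000.1), for 24333 genes. How fragments were weighted is not given in the sources used here. Per the file headers, the deposited table of nuclei also held fragment counts, quality measures, doublet scores, clusters, classes and genotypes. It listed each nucleus 2 times, and 1 copy was used. Cell Ranger and mm10 are named in the submitters' processing notes. The lowest listed depth was 1000 fragments, and no doublet caller was run here.

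Library and cluster means (at least 50 nuclei) were rescaled to 1000000. Genes with a mean of at least 5 were kept, and log2 values used a pseudocount of 1, which understates differences of low scores. KO minus WT used limma 3.58.1 in R 4.3.3 (trend, two-sided, Benjamini-Hochberg over all genes, threshold 0.05) and was tested on simulated data. The simulated data gave both genotypes the same spread. That check therefore does not cover the wider spread of the WT means at genes such as Gata2 and Cdk1. The limma p-values measure the spread between these libraries only. Python 3.11.15 was used with numpy 2.4.6, pandas 2.3.3, scipy 1.17.1 and matplotlib 3.10.9. Intervals cover counting error only.

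The members and lists were chosen with earlier results of these data known. Named genes were, per comparison, the 4 highest and 4 lowest counted genes with a score of at least 20 in the higher cluster, without predicted models or genes within 100 kb of one already named. The 4 markers, up to 2 highest and 2 lowest members of each list, and Stag2, Stag1, Gata1, Gata2 and Klf1 were added. Ube2o, Bpgm, Bnip3l, Ulk1, Hbb-bs, Hba-x and the genes listed as higher against each cluster were named after their values were seen. Alternatives changed the pseudocount, filter, scaling, weighting, depth, doublets and libraries.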

Additional observations from a re-analysis of the deposited data

How the results depend on the processing

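The counts of genes past the 2-fold rule moved with the pseudocount, the filter and the scaling. Against C5, the higher genes numbered 51 with a pseudocount of 5, 221 after quantile normalization, 154 after median centring and 149 in nuclei with 5000 to 12000 fragments. The lower genes against C5 numbered 178 with a pseudocount of 5, 184 with a filter at a mean of 20, 1662 without a filter, 251 after quantile normalization and 1365 in that depth window. Against C8, quantile normalization gave 92 higher and 226 lower, median centring 385 and 225, a pseudocount of 5 gave 412 lower and a filter at 20 gave 499 lower. Against C10, the higher genes numbered 46 with a pseudocount of 5, 142 after quantile normalization, 138 after median centring and 185 in the depth window, and the lower genes 251 with a pseudocount of 5, 207 with a filter at 20, 2073 without one, 335 after quantile normalization and 575 after median centring. Weighting nuclei by fragments, or leaving out the tenth with the highest doublet scores or any KO replicate, kept each count within 1.5 times.

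Of 752 recomputed values of 24 genes, 573 stayed within 1 SD, 176 moved further with the same sign and 3 changed sign. These were Stag2 against C5 (-0.03, quantile normalization), and Klf1 (0.16) and Gata1 (0.04) against C8 (median centring). The cause was not tested. A change of the filter cannot alter the value of a gene that passes it. Leaving out 1 of 3 libraries cannot move a mean by 1 SD. The 573 therefore include values that were bound to stay.

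Within C2, KO minus WT gave 1495 genes without a filter, 54 without the variance trend and 0 to 1161 with 1 library left out. With the replicate number as a block, 0 passed, and the pairing correlations of same-numbered libraries were 0.0127, 0.0172 and 0.0787, so the numbers were not taken as pairs. Nuclei with at most 4000 fragments, an alternative chosen after seeing the data, also gave 0. Gata1 was -0.01 after quantile normalization, -0.07 after median centring and -0.57 to 0.45 with 1 library left out, and Stag1 was -0.59 to 0.03.

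C2 held 71.5% of KO nuclei in the depth window. With means over nuclei, C2 differed from C5 by 715 fragments and 5.36 percentage points of fragment ends in peaks, and from C8 by -16352.5 fragments. The depth window was not run against C8, where 1 library had 50 such nuclei, nor within C2, where WT libraries had too few.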
